A study of Homo sapiens with 3 samples.

Results

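The transcripts of 10 genes of the mTORC1 axis were examined in H660 cells treated with JG231: MTOR, RPTOR, RICTOR, TSC1, TSC2, RHEB, DEPTOR, EIF4EBP1, DDIT4 and SESN2. They were selected by symbol out of 58735 genes in the deposited table, and each symbol had 1 row with a value above 0 in every library. The human H660 line was derived from a neuroendocrine prostate cancer, and JG231 is a small molecule that inhibits the chaperone HSP70 at an allosteric site. There were 3 libraries, all from parental H660 cells, 1 each from vehicle (DMSO), 2.5 μM JG231 and 5 μM JG231, and the treatment lasted 24 h. With 1 library per condition there was no replicate, so neither a standard deviation between samples nor a p-value can be given. The records label the cells as prostatic adenocarcinoma. In these libraries the neuroendocrine transcripts were abundant, with CHGA at 45.99 FPKM and SYP at 17.7 in DMSO, whereas the luminal gene KLK2 was listed at 0.

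mTORC1 is a kinase complex that promotes protein synthesis and restrains autophagy when amino acids, energy and growth factors are sufficient. MTOR is its catalytic subunit and RPTOR (Raptor) the subunit that recruits substrates, while RICTOR defines the sister complex mTORC2. The small GTPase RHEB activates mTORC1 at the lysosome, and the TSC1-TSC2 complex switches RHEB off. DDIT4 (REDD1) and SESN2 (Sestrin2) are stress-induced inhibitors, the first acting through the TSC complex and the second as a leucine sensor that binds GATOR2. DEPTOR binds both mTOR complexes and inhibits them, and EIF4EBP1 (4E-BP1) is the mTORC1 substrate that blocks the cap-binding protein EIF4E until it is phosphorylated.

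Levels are given as FPKM, which divides the fragments of a gene by its transcript length and by the mapped fragments of the library, so that genes of different length can be set side by side. Changes are log2((FPKM in JG231 + 0.1)/(FPKM in DMSO + 0.1)), a scale that understates the change of low genes, and folds are FPKM ratios without the added 0.1. The libraries held about 16.1 M, 20.4 M and 24.1 M fragments for DMSO, 2.5 μM and 5 μM, as read from the steps of the FPKM values. From these, each gene was given an approximate number of fragments and a 95% counting interval, which covers counting error only since amplified reads are not independent molecules. The interval of a change was computed without the added 0.1, unlike the change itself, and the mismatch is largest for low genes. As a second yardstick, the spread of a gene was computed from how far the pair of JG231 libraries differed on the log2 scale among the 500 genes closest to it in mean FPKM (median absolute deviation scaled to a standard deviation). It is not a replicate error. Mitochondrial and small RNA genes held 40.5% of the FPKM sum in DMSO, 24.6% at 2.5 μM and 29.2% at 5 μM, and rescaling the libraries without them lowered the median gene to -0.28 at 2.5 μM and -0.38 at 5 μM.

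The bases just upstream of 4 of the genes are shown, SESN2 and DDIT4 from those with more transcript and MTOR and TSC2 from those with less. These are not the genes with the most extreme changes, and MTOR and TSC2 are those in whose windows a searched motif was found. RefSeq promoter windows on GRCh38.p14, from 250 bases before to 50 bases after the start of the gene, were found for 8 of the 10 genes, TSC2 having 2 windows. The part of each window that lies upstream and inside no GENCODE gene is printed 5′ to 3′ on the strand of the gene, and capitals mark letters that match a searched motif. The stretches are chr1:28259268-28259517 (plus strand) for SESN2, chr10:72273705-72273918 (plus) for DDIT4, chr16:2047867-2047966 (plus) for TSC2 and chr1:11262557-11262801 (minus) for MTOR.
SESN2: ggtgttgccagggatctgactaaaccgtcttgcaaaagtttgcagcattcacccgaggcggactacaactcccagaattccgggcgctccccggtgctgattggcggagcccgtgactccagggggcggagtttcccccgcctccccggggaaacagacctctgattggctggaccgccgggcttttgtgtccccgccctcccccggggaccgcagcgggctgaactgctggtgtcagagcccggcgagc
DDIT4: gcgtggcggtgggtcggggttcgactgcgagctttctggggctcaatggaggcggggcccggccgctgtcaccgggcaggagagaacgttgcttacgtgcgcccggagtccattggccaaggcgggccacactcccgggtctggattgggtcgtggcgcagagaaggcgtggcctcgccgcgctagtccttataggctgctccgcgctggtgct
TSC2: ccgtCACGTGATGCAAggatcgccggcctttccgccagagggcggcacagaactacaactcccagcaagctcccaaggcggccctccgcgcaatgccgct
MTOR: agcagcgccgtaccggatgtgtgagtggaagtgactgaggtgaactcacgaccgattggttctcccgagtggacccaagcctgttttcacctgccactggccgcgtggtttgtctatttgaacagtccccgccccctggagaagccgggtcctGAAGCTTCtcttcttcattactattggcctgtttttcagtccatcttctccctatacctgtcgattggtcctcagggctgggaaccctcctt
The motifs searched on both strands were the ATF4 composite element TGATGNAA, the E-box CACGTG, the AP-1 element TGANTCA and the heat shock element GAANNTTC. Among the 35116 RefSeq windows, 3.62% held the first, 7.26% the second, 7.71% the third and 6.77% the fourth. In TSC2 the E-box began 114 bases before the start and overlapped an ATF4 composite match beginning 110 bases before it. In MTOR a heat shock element match began 97 bases before the start. These letters were not found in the windows of SESN2, DDIT4, RHEB, RPTOR, RICTOR and TSC1. A match is a description of the sequence and does not show that a factor binds there.

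SESN2 and EIF4EBP1, which encode an inhibitor of mTORC1 and the inhibitor of EIF4E that mTORC1 controls, showed the largest changes among the 10 genes. At the other end, MTOR, RPTOR and TSC2 were lower at both doses by at most 1.002 on the log2 scale. With the limits of the study's methods, an expression over 1, taken here as an FPKM over 1 in either library, and a log2 change past 0.25, 6 of the 10 genes were higher and 3 lower at 2.5 μM, where 36.4% of all genes tested were higher and 43.4% lower. At 5 μM 5 were higher and 4 lower (MTOR, RPTOR, TSC1 and TSC2), against 36.5% and 45.1% of all genes. With the trend of change against transcript length removed, TSC1 and TSC2 at 5 μM were under the limit, at -0.18 and -0.21. MTOR was under it at 2.5 μM (-0.05), and at 5 μM MTOR and RPTOR turned to values just above 0. RICTOR at 5 μM was then past the limit, at 0.56. With the stricter limit of 1, SESN2, EIF4EBP1 and DDIT4 were higher and RPTOR lower at 2.5 μM, where 12.9% of all genes were higher and 21.7% lower. DDIT4 fell under this limit after rescaling without mitochondrial and small RNA genes (0.81) and with the length trend removed (0.84), as did RPTOR with a pseudocount of 1 (-0.78), with a common FPKM sum (-0.96) and with that trend removed (-0.80). At 5 μM SESN2, EIF4EBP1 and DEPTOR passed that limit upward and no member passed it downward, against 14.7% and 24.3% of all genes. TSC1 at 5 μM passed it downward, at -1.03, after rescaling without mitochondrial and small RNA genes. Both doses are compared with the same DMSO library, so the values at the 2 doses are not independent of each other. In RNA from bulk cells, fewer cells with a transcript and less of it per cell cannot be told apart.

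**Figure D1:**
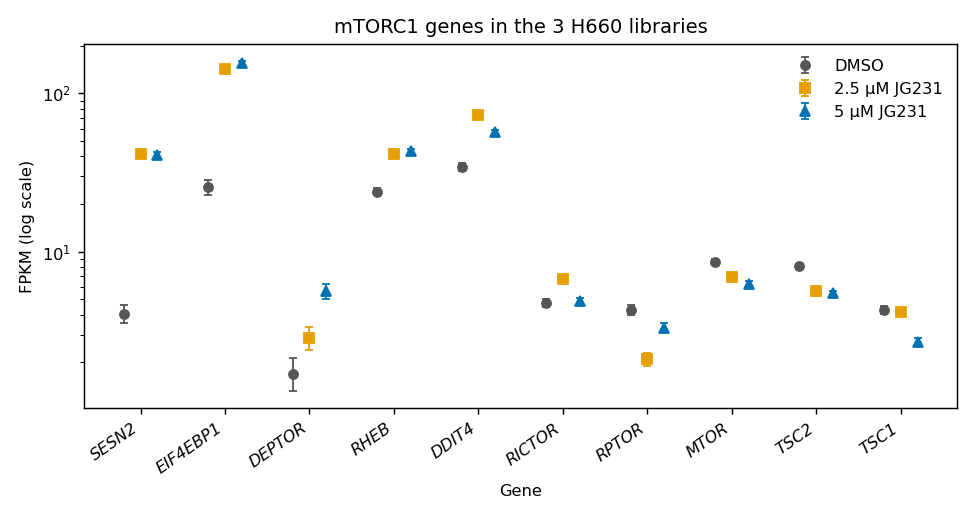
FPKM (log scale) of the 10 genes in the DMSO (circles), 2.5 μM (squares) and 5 μM JG231 (triangles) libraries, with bars for the 95% Poisson counting interval. SESN2 and EIF4EBP1 lie far above their DMSO values at both doses, and the other genes moved less.

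SESN2 (ENSG00000130766, chr1:28259518-28282491, plus strand, 10 exons, 1 annotated transcript of 3462 bp) had 4.07 FPKM with DMSO, 41.2 at 2.5 μM and 41.0 at 5 μM. The DMSO value stood on about 227 fragments and the JG231 values on about 2907 and 3418. Transcript was thus 10.1-fold higher at either dose, a log2 change of 3.31 at 2.5 μM (95% counting interval 3.14 to 3.54) and 3.30 at 5 μM (3.14 to 3.53), against a spread of 0.27. The 2 JG231 libraries differed by -0.01 (5 μM against 2.5 μM, interval -0.08 to 0.07). Of the 7571 genes whose mean FPKM was 5 or more, 32 had a larger change at 2.5 μM and 40 at 5 μM.

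The sestrin family did not move together. SESN1, the paralog known as a p53 target, had 3.90, 7.90 and 5.96 FPKM in DMSO, 2.5 μM and 5 μM. SESN3, a FoxO target, had 4.26, 2.58 and 1.83 FPKM, and its log2 change at 5 μM was -1.18 against a spread of 0.54. In DMSO the 3 sestrins had similar levels and SESN2 made up 33.3% of their sum. Its share was 79.7% at 2.5 μM and 84.0% at 5 μM. The summed sestrin level went from 12.2 FPKM to 51.7 and 48.8.

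DDIT4 (ENSG00000168209, chr10:72273919-72276036, plus strand, 3 exons in the canonical transcript) was the most abundant of the 10 transcripts in DMSO, with 34.2 FPKM. It had 73.3 FPKM at 2.5 μM and 57.0 at 5 μM, with about 1165, 3162 and 2905 fragments. Its log2 change was 1.10 at 2.5 μM (1.002 to 1.20) and 0.74 at 5 μM (0.64 to 0.84), against a spread of 0.22. The value at 5 μM was lower than that at 2.5 μM by a log2 difference of -0.36 (-0.44 to -0.29), an interval below 0, and this difference was past the spread. DDIT4L, the REDD2 paralog, was listed at 0 in all 3 libraries. The DDIT4 to SESN2 ratio went from 8.40 with DMSO to 1.78 (2.5 μM) and 1.39 (5 μM).

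DEPTOR (ENSG00000155792, chr8:119873717-120050918, plus strand) was the lowest of the 10 in DMSO. It had 1.68 FPKM with DMSO, 2.85 at 2.5 μM and 5.61 at 5 μM, on about 71, 152 and 355 fragments. The log2 change was 0.72 (0.34 to 1.18) at 2.5 μM and 1.68 (1.37 to 2.13) at 5 μM, with a spread of 0.49. It showed the largest difference between the doses among the 10 genes, 0.96 on the log2 scale (0.71 to 1.27).

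EIF4EBP1 (ENSG00000187840, chr8:38030534-38060365, plus strand, 3 exons in a canonical transcript of 827 bp) had 25.5 FPKM with DMSO, 142 at 2.5 μM and 156 at 5 μM. These values correspond to about 361, 2548 and 3303 fragments. The transcript was 5.58-fold and 6.12-fold higher, which is 2.47 (2.32 to 2.64) and 2.61 (2.46 to 2.77) on the log2 scale against a spread of 0.21. The pair of JG231 libraries differed by 0.13 (5 μM against 2.5 μM, interval 0.06 to 0.21), which is within the spread. At both doses EIF4EBP1 was the most abundant of the 10 genes, having been second to DDIT4 in DMSO.

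Its paralog EIF4EBP2, which encodes a second inhibitor of EIF4E, went the other way. EIF4EBP2 had 47.4 FPKM with DMSO, 21.4 at 2.5 μM and 23.996 at 5 μM, which is -1.15 and -0.98 on the log2 scale against a spread of 0.27. The EIF4EBP1 to EIF4EBP2 ratio within a library was 0.54 in DMSO, 6.65 at 2.5 μM and 6.50 at 5 μM. On the log2 scale this ratio changed by 3.63 and 3.60, and by 2.97 and 2.56 with a trend of change against transcript length, described further on, removed from both genes. EIF4EBP3 was listed at 0 in all 3 libraries. The sum of EIF4EBP1 and EIF4EBP2 went from 72.9 FPKM to 163.5 and 180.0. EIF4E itself, the target of these proteins, had 3.56, 4.70 and 5.03 FPKM, so that the EIF4EBP1 to EIF4E ratio was 7.16 in DMSO and 30.3 and 31.0 with JG231.

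**Figure D2:**
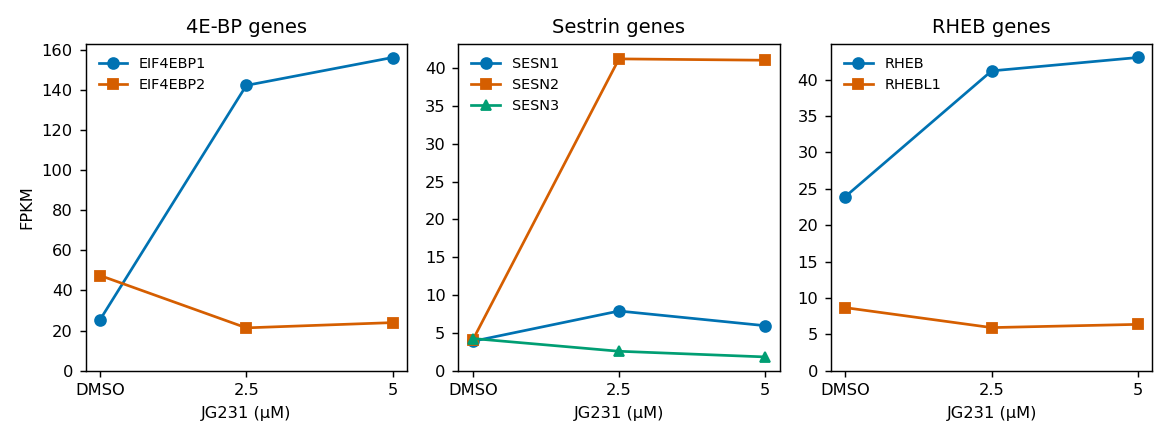
FPKM of the 4E-BP, sestrin and RHEB genes (lines) in the DMSO, 2.5 μM and 5 μM JG231 libraries, 1 library per point. EIF4EBP1 and SESN2 lie above their paralogs at both doses, while EIF4EBP2, SESN3 and RHEBL1 lie below their DMSO values.

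RHEB (ENSG00000106615, chr7:151466012-151520120, minus strand) had 23.9 FPKM with DMSO, 41.2 at 2.5 μM and 43.1 at 5 μM, on about 1361, 2966 and 3660 fragments. It was the activator with more transcript in both treated libraries, with a log2 change of 0.78 (0.69 to 0.88) at 2.5 μM and 0.84 (0.76 to 0.94) at 5 μM against a spread of 0.24. Its processed pseudogene RHEBP2 was listed at 21.2, 33.3 and 41.6 FPKM, and the counting could have divided reads between RHEB and this copy, so the RHEB value is uncertain. RHEBL1, a RHEB-like GTPase, had 8.67, 5.94 and 6.38 FPKM. The RHEB to RHEBL1 ratio was 2.76 in DMSO, 6.94 at 2.5 μM and 6.75 at 5 μM.

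TSC2 (ENSG00000103197, chr16:2047967-2089491, plus strand, 42 exons in the canonical transcript), the GTPase-activating subunit that acts on RHEB, had 8.10 FPKM with DMSO, 5.65 at 2.5 μM and 5.47 at 5 μM. Its log2 changes were -0.51 (-0.60 to -0.44) and -0.56 (-0.64 to -0.49) at 2.5 μM and 5 μM, both somewhat past the spread of 0.39. The 3′ end of TSC2 overlaps PKD1 on the opposite strand, which had 9.999, 3.55 and 4.28 FPKM. The libraries were strand-specific, but whether counting used the strand is not given in the sources used here, so the separation of these 2 genes is uncertain. TSC1 (ENSG00000165699, chr9:132891348-132946874, minus strand), which stabilises TSC2, had 4.31, 4.16 and 2.70 FPKM. Its log2 change was -0.05 (-0.16 to 0.06) at 2.5 μM and -0.66 (-0.79 to -0.56) at 5 μM, against a spread of 0.51. The third subunit, TBC1D7, had 3.85, 4.26 and 3.91 FPKM. Of TBC1D7 and RHEBL1, the 2 of 3 relatives with a mean FPKM of 1 or more, 0 were higher and 1 was lower past 0.25 at each dose, where 38.1% and 38.4% of all genes at that mean FPKM were higher and 38.0% and 40.0% lower. The RHEB to TSC2 ratio was 2.96 in DMSO, 7.29 at 2.5 μM and 7.87 at 5 μM, a log2 change of 1.41 at 5 μM and of 0.77 with the length trend removed from both genes.

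MTOR (ENSG00000198793, chr1:11106535-11262556, minus strand, 58 exons in a canonical transcript of 8721 bp) had 8.59 FPKM with DMSO, 6.92 at 2.5 μM and 6.26 at 5 μM. Each value stood on at least 1847 fragments. Log2 changes were -0.31 (-0.40 to -0.22) at 2.5 μM, within the spread of 0.34, and -0.45 (-0.55 to -0.36) at 5 μM, past it. RPTOR (ENSG00000141564, chr17:80544819-80966371, plus strand) had 4.31 FPKM with DMSO, 2.10 at 2.5 μM and 3.32 at 5 μM. It had the lowest change of the 10 genes, -1.002 (-1.21 to -0.86) at 2.5 μM against a spread of 0.53, but at 5 μM the change was -0.37 (-0.52 to -0.23), within the spread. RPTOR and DEPTOR were the members with a higher value at 5 μM than at 2.5 μM by more than 0.25, whereas DDIT4, RICTOR and TSC1 were lower there by more than 0.25. Of all genes tested between these 2 libraries, 26.8% were higher and 30.1% lower past this limit.

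RICTOR (ENSG00000164327, chr5:38937920-39074402, minus strand) had 4.73 FPKM with DMSO, 6.70 at 2.5 μM and 4.87 at 5 μM. The log2 change was 0.49 (0.39 to 0.61) at 2.5 μM, just past the spread of 0.43, and 0.04 (-0.07 to 0.15) at 5 μM. The value at 2.5 μM was 0.21, under the limit of 0.25, after rescaling without mitochondrial and small RNA genes, and that at 5 μM was 0.56 with the length trend removed. The RPTOR to RICTOR ratio, which sets the defining subunit of mTORC1 against that of mTORC2, was 0.91 in DMSO, 0.31 at 2.5 μM and 0.68 at 5 μM. Its change was therefore larger at the lower dose. MLST8, a subunit of both complexes, went from 10.2 FPKM in DMSO to 21.8 and 23.5, while MTOR was lower, and the MLST8 to MTOR ratio went from 1.18 to 3.14 and 3.76. With the length trend removed from both genes the log2 change of this ratio at 5 μM was 0.81 in place of 1.67, and MTOR was then no longer lower.

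The order of the levels changed with treatment. In DMSO, DDIT4 was followed by EIF4EBP1 and RHEB, whose counting intervals overlapped, and then by MTOR and TSC2, whose intervals also overlapped. RICTOR, TSC1, RPTOR and SESN2 followed with overlapping intervals of 4.45 to 5.03, 4.07 to 4.56, 3.998 to 4.64 and 3.56 to 4.64 FPKM, and DEPTOR was last. At 5 μM EIF4EBP1, DDIT4, RHEB and SESN2 had the 4 highest levels, with overlapping intervals for RHEB and SESN2. MTOR at 6.26 FPKM and DEPTOR at 5.61 were next with overlapping intervals, and RPTOR and TSC1 were last.

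**Figure D3:**
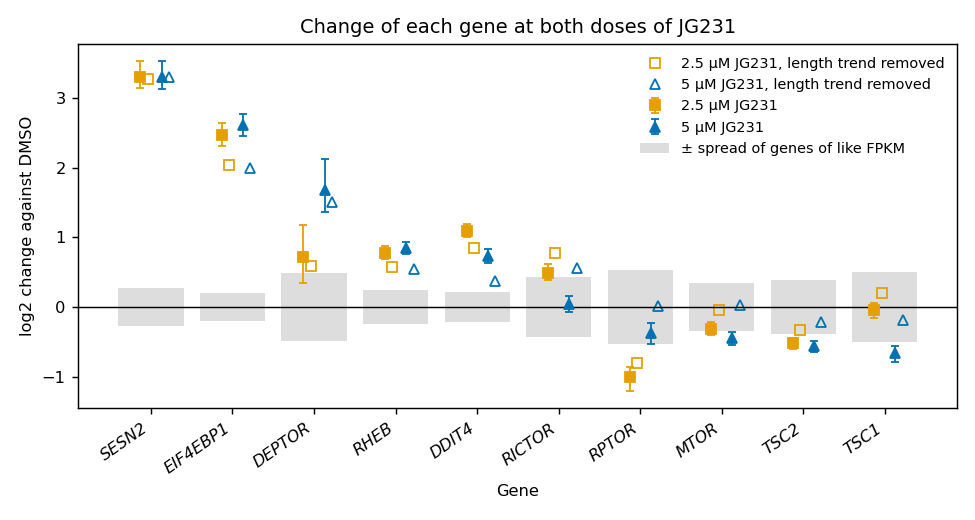
Log2 change against DMSO of each gene at 2.5 μM (squares) and 5 μM JG231 (triangles), with bars for 95% counting intervals, open symbols for values with the transcript length trend removed, and grey boxes for the spread of genes of like FPKM. SESN2 and EIF4EBP1 lie above 1.9 in every version, and MTOR and RPTOR at 5 μM lie near 0 once the length trend is removed.

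Transcript length moved with the split between the genes. The canonical transcripts of MTOR, RPTOR, RICTOR, TSC1 and TSC2 are over 6 kb long (6415 to 9533 bp), and those of SESN2, DDIT4, DEPTOR, EIF4EBP1 and RHEB are under 4 kb (827 to 3462 bp). All 5 short transcripts were higher at both doses, as were 60.2% of 6853 protein-coding genes of that length at 2.5 μM and 61.9% at 5 μM. Of the 5 long transcripts 4 had changes below 0 at both doses, that of TSC1 at 2.5 μM being -0.05, and RICTOR was the exception, while of 1990 protein-coding genes over 6 kb 34.2% were higher at 2.5 μM and 25.9% at 5 μM. A lowess curve of change against length had a value of -0.48 at the length of MTOR at 5 μM, and -0.38 at that of RPTOR. With the curve subtracted, MTOR had a change of 0.03 and RPTOR 0.0085 at 5 μM, TSC2 -0.21 and TSC1 -0.18, while RICTOR was at 0.56. SESN2 was at 3.31, EIF4EBP1 at 1.99 and DEPTOR at 1.502 after the same subtraction, and RHEB and DDIT4 were at 0.55 and 0.38. At 2.5 μM RPTOR was at -0.80 and TSC2 at -0.33 with the curve subtracted. Beyond this subtraction, the part of length in these values was not tested.

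**Figure D4:**
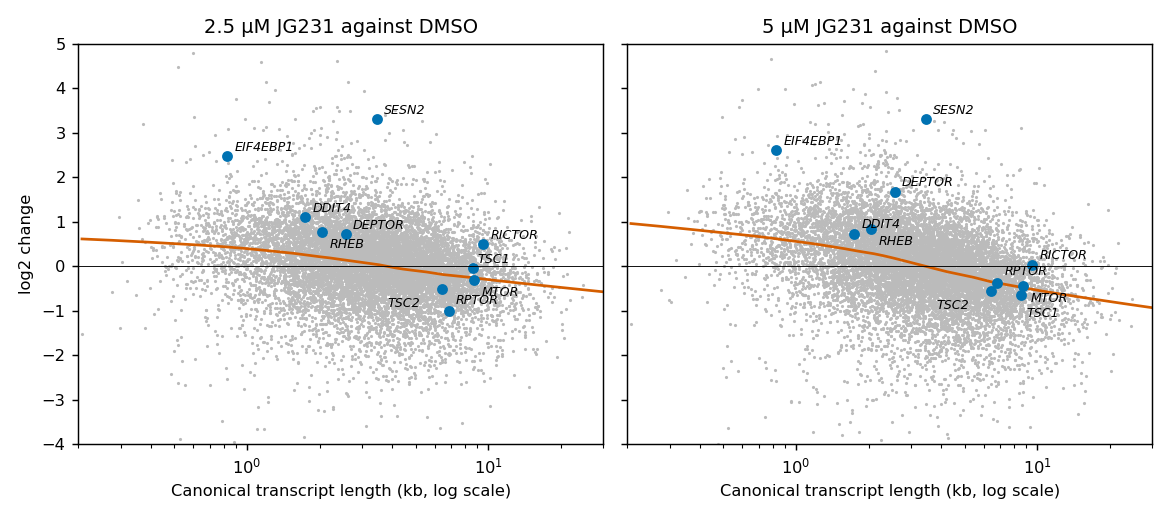
Log2 change against DMSO plotted on canonical transcript length (kb, log scale) for 11200 protein-coding genes at a mean FPKM of 1 or more (grey), with the lowess curve (orange) and the 10 genes (blue), at 2.5 μM (left) and 5 μM (right). SESN2 and EIF4EBP1 lie well above the curve, and MTOR and RPTOR at 5 μM lie on it. A few grey points beyond the vertical axis limits are not drawn.

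The rest of the pathway was examined in 73 other genes, of which 67 reached a mean FPKM of 1. At 2.5 μM 34 of them were higher and 18 lower past 0.25, with a median log2 change of 0.28, where 38.1% of all 13785 genes of that expression were higher and 38.0% lower with a median of 0.00. At 5 μM 32 were higher and 20 lower, with a median of 0.22, where 38.4% of all genes were higher and 40.0% lower with a median of -0.01. Both medians of all genes shift by the amounts given above when libraries are rescaled without mitochondrial and small RNA genes.

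The lysosomal platform recruits mTORC1. Of 13 Rag GTPase, Ragulator, folliculin complex and SLC38A9 genes, 8 were higher and 3 lower at 2.5 μM, and 9 were higher and 1 lower at 5 μM, where 38.1% and 38.4% of all genes at that mean FPKM were higher and 38.0% and 40.0% lower. The list medians were 0.56 and 0.72, or 0.27 and 0.35 after rescaling that leaves out mitochondrial and small RNA genes. FLCN, which activates RRAGC and RRAGD, had 3.13, 8.39 and 7.85 FPKM, which is 1.40 and 1.30 on the log2 scale against a spread of 0.39. RRAGA, a Rag GTPase that binds Raptor when loaded with GTP, went from 29.0 FPKM to 49.7 and 66.3. FNIP2, a folliculin partner, was the gene of this list lower past the limit at 5 μM, with 2.72, 2.11 and 1.28 FPKM and a wide spread of 0.76.

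Among the 6 measured genes of GATOR1, which inactivates the Rag GTPases, and of its KICSTOR anchor, 5 were higher and 1 was lower at both doses, against 38.1% and 38.4% of all genes higher and 38.0% and 40.0% lower, with medians of 0.58 and 0.46 (0.29 and 0.089 after the same rescaling). NPRL2, a GATOR1 subunit, had 5.66, 12.99 and 17.8 FPKM. ITFG2, of KICSTOR, had 1.46, 3.48 and 2.43 FPKM. GATOR2, the complex that SESN2 binds, had 3 of 5 genes higher and 0 lower past the limit at 2.5 μM, and 1 higher and 1 lower at 5 μM, beside those same shares of all genes. Its medians were 0.53 and 0.17 (0.24 and -0.20 after the same rescaling). SEC13, which also serves vesicle coats, went from 13.7 FPKM to 26.2 and 31.5. MIOS had 3.48, 5.37 and 4.01 FPKM, and WDR59 3.82, 3.28 and 3.09.

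Of 7 measured genes for the remaining subunits of the 2 mTOR complexes and their TTT assembly factors, 2 were higher and 3 lower at each dose, where 38.1% and 38.4% of all genes were higher and 38.0% and 40.0% lower. Their medians were -0.09 and -0.16 (-0.38 and -0.54 after the same rescaling). Beside MLST8, TTI2 of the TTT complex was higher, with 2.24, 3.96 and 4.14 FPKM. PRR5, an mTORC2 subunit, had 4.24, 3.97 and 2.15 FPKM, a log2 change of -0.95 at 5 μM. PRR5L was listed at 0 in all libraries. Of 5 measured sestrin paralogs and amino acid sensors, 1 was higher and 1 lower at 2.5 μM and 2 were higher and 2 lower at 5 μM, beside the same shares of all genes. Their medians were 0.20 and -0.02, or -0.08 and -0.40 after the same rescaling and 0.42 and 0.43 with the length trend removed. BMT2, the SAM sensor also called SAMTOR, had 4.10, 3.77 and 2.40 FPKM, and CASTOR1, an arginine sensor, was listed at 0 throughout.

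Of 14 measured downstream effectors, 8 were higher and 4 lower at 2.5 μM and 7 higher and 5 lower at 5 μM, against 38.1% and 38.4% of all genes higher and 38.0% and 40.0% lower. Their medians were 0.35 and 0.17, or 0.07 and -0.20 after that rescaling, and the median at 2.5 μM turned to -0.017 among genes whose mean FPKM was 5 or more. TFEB, the lysosome and autophagy transcription factor that mTORC1 holds in the cytoplasm, had 0.75, 4.63 and 4.38 FPKM on about 81, 634 and 708 fragments, log2 changes of 2.48 and 2.40. RPS6KB2, which encodes a S6 kinase, had 5.37, 11.2 and 13.2 FPKM. MAF1, a repressor of RNA polymerase III, went from 95.8 FPKM to 161.8 and 225.7.

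**Figure D5:**
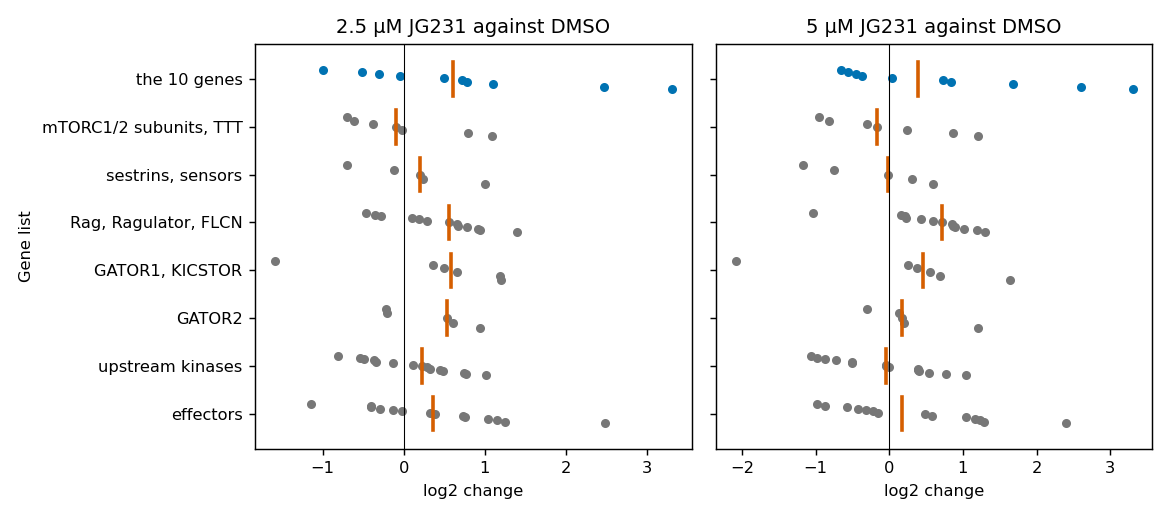
Log2 change against DMSO (horizontal axis) of the 10 genes (blue) and of 7 lists of other pathway genes (grey), 1 point per gene whose mean FPKM was 1 or more, at 2.5 μM (left) and 5 μM JG231 (right); orange bars are list medians. The medians of the Rag, Ragulator and folliculin list are 0.56 and 0.72 (0.27 and 0.35 after rescaling that leaves out mitochondrial and small RNA genes), and those of the GATOR1 and KICSTOR list are 0.58 and 0.46 (0.29 and 0.089).

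SESN2, DDIT4 and EIF4EBP1 are known targets of the stress factor ATF4, and 8 genes of stress responses were read in the same libraries. All 8 were higher at both doses past 0.25, where 38.1% and 38.4% of all genes with a mean FPKM of 1 or more were higher. ATF4 had 90.6 FPKM with DMSO, 278.0 at 2.5 μM and 330.9 at 5 μM, ASNS (asparagine synthetase) 0.77, 5.21 and 4.67, and CHAC1 (a glutathione-degrading enzyme) 3.90, 6.63 and 7.69. TRIB3, an inhibitor of AKT, and ATF3, a stress transcription factor, were 4.84 and 3.89 higher on the log2 scale at 5 μM, and DDIT3 (CHOP) had 24.8, 337.9 and 396.8 FPKM. CDKN1A, a p53 target, had a change of 1.36 at 5 μM, and HIF1A, whose protein induces DDIT4 in hypoxia, one of 0.49. Whether these genes account for the members' values was not tested.

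Genes of like pattern were ranked by the Euclidean distance between their pair of log2 changes and that of a member, over 7570 other genes whose mean FPKM was 5 or more and 2 doses that share the DMSO library. The 5 nearest to SESN2 were MYC, GDF15, GBP2, RGS16 and RPL22L1, at distances of 0.10 to 0.27. MYC had 4.62 FPKM with DMSO, 49.9 at 2.5 μM and 45.5 at 5 μM, and GDF15, a stress-induced secreted factor, 178.6, 1572 and 1637. The 5 nearest to EIF4EBP1 were RAB3IL1, ASS1, EMC6, AC245297.3 and RELB, at distances of 0.011 to 0.11. ASS1, the argininosuccinate synthase of arginine synthesis, had 1.90, 11.3 and 12.2 FPKM.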

How the data were processed

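RNA-seq values of 3 H660 libraries were analysed. The methods of the paper say that the authors aligned reads with HISAT and quantified them with StringTie, whereas the processing notes of the records name HISAT2, featureCounts and GRCh38 (hg38); versions and annotation release are not given in the sources used here. The authors deposited gene-level FPKM values, with no further normalisation between libraries stated. Rows were matched by identifier to GENCODE release 44 (GRCh38) for 58207 genes. Fragments per gene were computed from the FPKM steps and the exon length in GENCODE release 44, and are approximate, since the annotation may differ. Among genes with a single transcript and under 50 fragments, 86.5% to 90.2% of values lay within 0.1 of a whole fragment. Intervals are exact (Poisson for a level, Clopper-Pearson for a ratio) at 95%, and that of a change leaves out the pseudocount. The lowess curve used a fraction of 0.3.

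Calls used a log2 change past 0.25 with a pseudocount of 0.1 and an expression over 1, as in the methods, the last taken as an FPKM over 1 in either library. The 10 genes and the lists were chosen with earlier results of these data known. Besides the 10 genes, the text names paralogs, up to 3 genes per list with the largest change at 5 μM, the same sign at both doses and a mean FPKM of at least 1, the 5 genes nearest in pattern to the 2 members with the largest change at 5 μM, and the stress and cell type markers. EIF4E, PKD1, RHEBP2, PRR5L and CASTOR1, the ratios that involve MLST8, EIF4E, RHEBL1 and DDIT4, and the paralog sums were chosen after their values were seen. Some genes of the lists are not reported here by name. Scripts were tested on simulated data. Computations used statsmodels 0.14.6, scipy 1.17.1, pandas 2.3.3 and numpy 2.4.6 under Python 3.11.15, and figures matplotlib 3.10.9.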

Additional observations from a re-analysis of the deposited data

How the results depend on the processing

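The changes of SESN2, EIF4EBP1, DEPTOR, RHEB and DDIT4 were above 0 at both doses under each pseudocount (1 and 0.01), each rescaling, centring on the median gene and removal of the length trend. Their lowest values were 2.93, 1.99, 0.45, 0.46 and 0.36. TSC2 was below 0 in each of these settings, between -0.93 and -0.21. With the length trend removed the change at 5 μM was 0.031 for MTOR and 0.0085 for RPTOR, so their direction turned. TSC1 and TSC2 at 5 μM were then at -0.18 and -0.21, under the limit of 0.25, and RICTOR was past it at 0.56. In an alternative chosen after seeing the data, removing that trend from both genes of a ratio gave log2 changes of 0.91 and 0.77 for RHEB to TSC2 and of 2.97 and 2.56 for EIF4EBP1 to EIF4EBP2 at 2.5 μM and 5 μM. After rescaling without mitochondrial and small RNA genes RICTOR at 2.5 μM lost its call at 0.21 and TSC1 gained one at -0.33. RICTOR gained a lower call at 5 μM, at -0.33. In that setting the median of all genes was itself past the limit, at -0.28 for 2.5 μM and -0.38 for 5 μM. RICTOR at 5 μM ranged from -0.33 to 0.56, TSC1 at 2.5 μM from -0.33 to 0.21 and TSC1 at 5 μM from -1.03 to -0.18. With a threshold of 1, 3 genes were higher and 1 lower at 2.5 μM, against 12.9% and 21.7% of all genes. At 5 μM 3 were higher and 0 lower, against 14.7% and 24.3%. With a mean FPKM of at least 5, 2 were lower at 5 μM, since fewer genes were tested. Under that filter the list medians were -0.017 at 2.5 μM, where the direction turned, and -0.23 at 5 μM for downstream effectors, and 0.40 at 5 μM for upstream kinases. After rescaling without mitochondrial and small RNA genes the medians at 5 μM were -0.54 for the other complex subunits, 0.35 for the Rag and Ragulator list, -0.41 for upstream kinases and -0.20 for downstream effectors. With the length trend removed those of sensors and of upstream kinases at 5 μM were 0.43 and 0.38. The cause was not tested beyond what each setting alters. No paired analysis was possible because each condition had 1 library, and no library could be left out. DEPTOR in DMSO, on about 71 fragments, is the least precise member value.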

Other observations

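The kinases that signal to mTORC1 showed no common direction. Of 15 measured upstream genes, 7 were higher and 5 lower past 0.25 at 2.5 μM, and 6 were higher and 6 lower at 5 μM, where 38.1% and 38.4% of all genes with a mean FPKM of 1 or more were higher and 38.0% and 40.0% lower, with medians of 0.22 and -0.04, or -0.06 and -0.41 after rescaling that leaves out mitochondrial and small RNA genes. AKT2, a kinase that inactivates TSC2, had 5.18 FPKM with DMSO, 3.52 at 2.5 μM and 2.44 at 5 μM. PDPK1, which phosphorylates AKT and S6 kinase, had 3.96, 2.22 and 1.96 FPKM. PRKAB1, a regulatory subunit of the energy sensor AMPK, went from 9.53 FPKM to 16.1 and 19.7. At 5 μM the log2 changes were -1.06 for AKT2 and -0.98 for PDPK1 against spreads of 0.50 and 0.54, and 1.04 for PRKAB1 against a spread of 0.28.

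Of the markers of other cell types, PTPRC (leukocytes) and PECAM1 (endothelium) were listed at 0 in all 3 libraries, and CD68 was listed at 0 at both doses. VIM, a mesenchymal filament gene, had 2.52, 8.43 and 6.38 FPKM, and COL1A1 0.82, 0.74 and 1.27. The luminal genes KLK3 and TMPRSS2 stood on at most 10 and 37 fragments. All 6 neuroendocrine markers were lower at 5 μM past 0.25, where 40.0% of all genes with a mean FPKM of 1 or more were lower, with a median log2 change of -0.63. SYP only just passed, at -0.252. At 2.5 μM 5 of 6 were lower and 1 was higher, against 38.0% and 38.1% of all genes, with a median of -0.39.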
